A study of Mus musculus with 6 samples.

Results

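Plasma cells of mouse bone marrow and B cells of the spleen were compared here for 10 genes that write, maintain or remove DNA methylation or that belong to the Polycomb complexes: Dnmt1, Dnmt3a, Dnmt3b, Uhrf1, Tet1, Tet2, Tet3, Ezh1, Ezh2 and Bmi1. They were chosen by symbol, and every probe set (a group of short probes for 1 transcript) annotated with 1 of those symbols was kept. That gave 26 of the 45037 probe sets that are not array controls, and 10 of 18193 measured genes. Each group had 3 arrays, and all 6 samples were C57BL/6 mouse cells. The plasma cells were B220- and CD138+ cells of the bone marrow, boosted with KLH (keyhole limpet hemocyanin, a foreign protein used as antigen) 7 days before. They were pre-enriched by CD138 on magnetic beads, then sorted, with 50000 to 70000 cells per array. The B cells were B220+ CD23+ cells of the spleen, described as naive, with 2000000 to 3000000 cells per array. No boost, age or genotype is given for the B cells, and no age or genotype for the plasma cells. Tissue, boost, enrichment and input differed in the same way as cell type, so their parts cannot be told apart. An X-linked and a Y-linked gene also differed between the plasma cell arrays and B cell arrays 2 and 3, as given below. The labels do not say whether replicate arrays came from separate or pooled animals, so p-values measure only the spread between these arrays, and that spread may be technical.

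DNA methylation marks cytosines, mostly in CG pairs. DNMT3A and DNMT3B place new marks, and DNMT1, brought to the replication fork by UHRF1, copies them to the daughter strand when DNA is replicated. TET1, TET2 and TET3 oxidise methylated cytosine, which is a first step of its removal. Polycomb repressive complex 2 (PRC2) methylates histone H3 at lysine 27 through EZH2, which is most abundant in dividing cells, or EZH1, which is found in resting cells too. BMI1 belongs to Polycomb repressive complex 1 (PRC1), which ubiquitinates histone H2A. In the B lineage EZH2 is known for its high level in germinal centre B cells, and BMI1 for its repression of the Cdkn2a locus.

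The labels were checked on the genes behind the sort. Sdc1, which encodes CD138, ranged from 12664 to 13218 in intensity on the plasma cell arrays and from 969 to 1183 on the B cell arrays, and Fcer2a, which encodes CD23, ranged from 44.0 to 52.0 and from 5061 to 6734. Ptprc, whose B220 form is the gate, was measured over all its forms and ranged from 4170 to 4288 in plasma cells and from 9341 to 9599 in B cells. B cell array 1 stood apart. It correlated with B cell arrays 2 and 3 at 0.933 and 0.926, whereas those correlated with each other at 0.992, and its summed T and NK cell markers were 4715 against 304 and 372, beside 953 to 1700 in plasma cells. Its summed granulocyte markers were 12745 against 2915 and 1916, beside 8460 to 19946 on the plasma cell arrays. Its summed erythroid markers were 4937 against 3643 and 3880, beside 2114 to 4574 in plasma cells. Among them, Slc4a1 was 1158 on it against 18.4 and 37.3, beside 143 to 327 in plasma cells, and Alas2 was also higher. Tfrc was not higher on it, at 3538 against 3582 and 3807, and Klf1 and Epor were at or below the level of bacterial control probe sets. Xist, an X-linked RNA of female cells, was 8408 on B cell array 1 and 30.8 and 18.1 on the other B cell arrays, while the plasma cell arrays ranged from 8070 to 8702. The Y-linked gene Kdm5d was 3.62 on B cell array 1 and 1507 and 1576 on the other 2. On plasma cell arrays 1 to 3 it was 8.8, 7.9 and 3.0. Plasma cell array 3 had the highest summed level of precursor B cell markers, 21378 against 14541 and 10728 on plasma cell arrays 1 and 2 and 2602 to 4908 in the B cells. These differences lie within the groups compared, and results that rest on either array are given with and without it.

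Of the 10 genes, 3 rose and 1 fell in plasma cells, and 6 did not pass the test. Uhrf1, Tet1 and Bmi1 rose, Tet3 fell, and Dnmt1, Dnmt3a, Dnmt3b, Tet2, Ezh1 and Ezh2 were not called. A gene was called when its adjusted p in limma, with Benjamini-Hochberg adjustment over all 18193 genes, was below 0.05. For each gene the probe set with the highest mean of log2(intensity + 16) was used, and log2 fold changes are plasma cells minus B cells on that scale, which understates the change of dim genes. The called share of the 10 genes was 40.0%, beside 29.9% of all genes called in either direction, 17.6% higher and 12.3% lower. Calls were thus common over the whole array, and the count of 4 among 10 is near that background. The groups did not overlap for 6 of the 10, beside 47.8% of all genes. The median log2 fold change was 0.02 over the 10 genes and −0.06 over all genes. Centring each array on its median moved every log2 fold change up by 0.12. In bulk RNA, fewer cells of a type and less RNA per cell cannot be told apart.

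**Figure D1:**
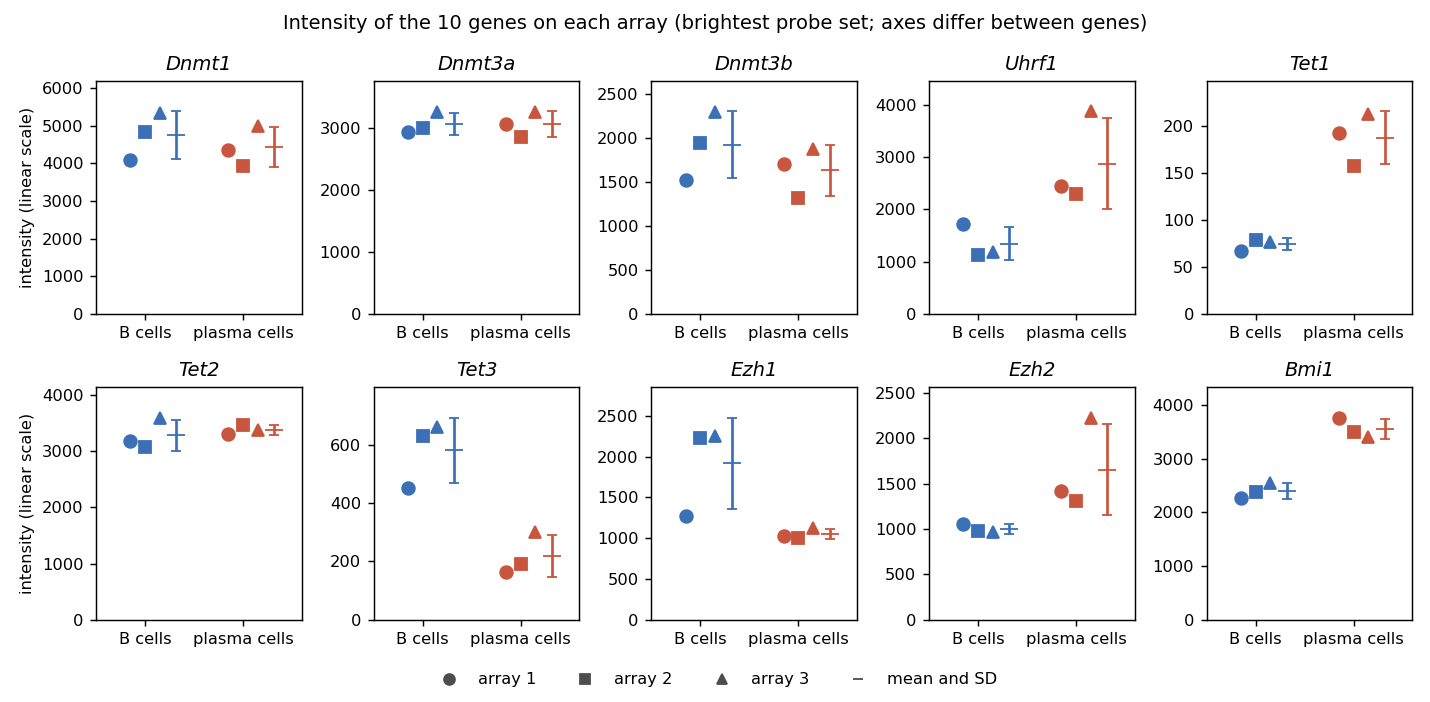
Intensity of the representative probe set of each of the 10 genes on each of the 6 arrays, on a linear axis from 0 that differs between genes. Symbols are arrays 1 to 3 of each group, and bars give the mean and SD of 3 arrays. The groups do not overlap for Uhrf1, Tet1, Tet3, Ezh1, Ezh2 and Bmi1, and they overlap for Dnmt1, Dnmt3a, Dnmt3b and Tet2.

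Over single probe sets the picture was more mixed. Of the 26 probe sets, 3 were called higher and 2 lower in a separate limma fit over all 45037 probe sets, in which 26.2% were called. The groups did not overlap for 13 of the 26 (50%), 6 of them higher and 7 lower in plasma cells, beside 45.4% of all probe sets. Of the 26, 23 were above the background level on all 6 arrays. That level is the 95th percentile of 27 control probe sets for bacterial genes, and it ranged from 23.0 to 41.8 between arrays. Among the 8 genes with more than 1 probe set, Dnmt1, Dnmt3a and Tet1 had log2 fold changes of both signs. Those above 0 for Dnmt1 and Dnmt3a, at 0.002 ± 0.14 and 0.05 ± 0.23 (SE), were smaller than their SE and show no direction. Probe sets of 1 gene are not replicates of the condition, since they read the same RNA.

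**Figure D2:**
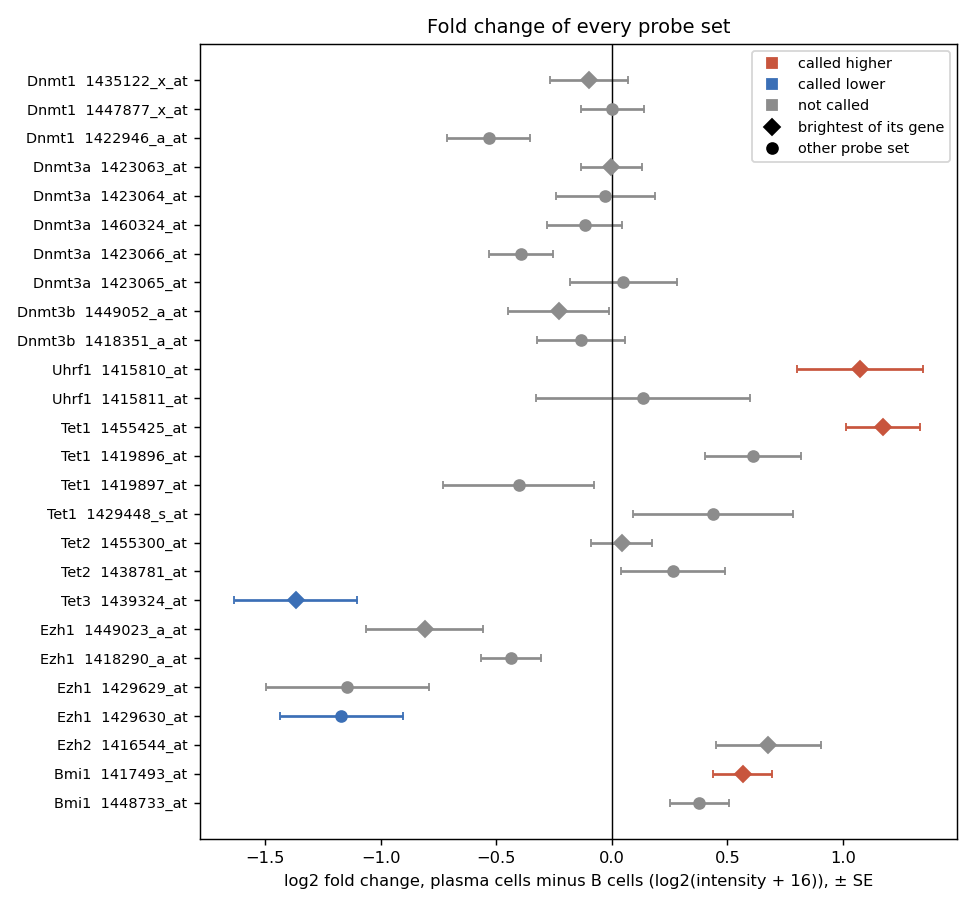
Log2 fold change (plasma cells minus B cells, log2(intensity + 16)) of each of the 26 probe sets, with its standard error as a bar; colour gives the call and diamonds mark the probe set that stands for its gene. All 4 probe sets of Ezh1 lie left of 0 and both probe sets of Bmi1 right of 0, whereas those of Uhrf1 and Tet1 differ widely in size.

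Uhrf1, Ezh2 and Dnmt1 are textbook targets of the E2F factors, which switch on genes of DNA replication. Their promoter sequences were therefore searched for the E2F motif in the RefSeq promoter table of assembly GRCm38.p6, in windows of 300 bases that run from 250 before to 50 after each start of transcription. All 10 genes matched, with 15 windows. The motif was searched as TTTGGCGC, TTTGCCGC, TTTCGCGC or TTTCCCGC on both strands. It was found in 3 of the 10 genes, Dnmt1, Uhrf1 and Ezh2, and in 2.60% of 27025 genes with a window. Windows rich in CG pairs held it more often, at 4.90% of the 3469 windows with at least 31 such pairs, and 7 of 17 S phase and mitosis genes with a window held it. The matches are printed with up to 11 bases on either side, 5′ to 3′ on the strand of the gene, with the motif in capitals. They show which letters lie near the starts of these genes, and a match is not evidence of a factor bound there.
Uhrf1, chr17:56304117-56304146, + strand: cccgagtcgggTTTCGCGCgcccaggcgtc
Ezh2, chr6:47595009-47595038, − strand: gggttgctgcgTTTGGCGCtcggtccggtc
Dnmt1, chr9:20952824-20952853, − strand: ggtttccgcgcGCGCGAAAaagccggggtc
Dnmt1, chr9:20952574-20952601, − strand: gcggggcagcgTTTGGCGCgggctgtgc

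The first Dnmt1 match is the motif on the opposite strand and reads GCGCGAAA here. Of the 3 genes, Uhrf1 was called higher, Ezh2 was higher on every plasma cell array without a call, and Dnmt1 overlapped between the groups. No test compared the 3 genes with each other, and the part of E2F factors in their values was not tested. No match in the other 7 genes says only that these letters are not in those windows.

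Of the 2 main genes of maintenance methylation, Uhrf1 was called higher and Dnmt1 was not called. Dnmt1, which copies methylation after replication, had intensities of 4080, 4834 and 5339 on B cell arrays 1 to 3 and of 4352, 3932 and 4989 on plasma cell arrays 1 to 3. The groups overlapped. It gave a log2 fold change of −0.10 ± 0.16 (SE), with a 95% interval from −0.50 to 0.30 and an adjusted p of 0.686 (limma). The interval does not show that the levels were equal. This probe set, 1435122_x_at, is of a class that can also bind other transcripts. A second probe set of that class, 1447877_x_at, gave a log2 fold change of 0.00 ± 0.14. The third, 1422946_a_at, had 1537, 1968 and 2076 in B cells and 1229, 1143 and 1460 in plasma cells. Those values did not overlap, and the log2 fold change of −0.53 ± 0.18 had an adjusted p of 0.0796 over all probe sets. With x and s probe sets left out, Dnmt1 was represented by 1422946_a_at, at an adjusted p of 0.0667 over all genes.

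Uhrf1, which recognises hemimethylated DNA and recruits DNMT1, rose. Its B cell arrays had 1713, 1133 and 1180, and its plasma cell arrays 2443, 2299 and 3882. The lowest plasma cell array lay above the highest B cell array, which was B cell array 1, and plasma cell array 3 was the highest of all. The log2 fold change was 1.07 ± 0.27, a 2.11-fold difference with a 95% interval from 0.42 to 1.73 on the log2 scale and an adjusted p of 0.029 (limma). The call depended on 5 of the 6 arrays. Without B cell array 1 the log2 fold change was 1.26 with an adjusted p of 0.0141, and without that array and plasma cell array 3 it was 1.02 with an adjusted p of 0.0035. The call was lost without B cell array 2 (log2 fold change 0.97, adjusted p 0.0943), without B cell array 3 (1.00, adjusted p 0.0903) and without plasma cell array 1, 2 or 3 (1.17, 1.21 and 0.84, with adjusted p of 0.0667, 0.0514 and 0.0646). The other probe set of Uhrf1, 1415811_at, had 314, 91.1 and 86.7 in B cells and 164, 149 and 146 in plasma cells. It overlapped only through B cell array 1, and its log2 fold change was 0.14 ± 0.46. With the mean of both probe sets the fold fell to 0.60 and the call was lost, at an adjusted p of 0.224. The call was also lost with the replicate number as a block in limma (adjusted p 0.065).

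The de novo methyltransferases showed no called difference. Dnmt3a had 2941, 3009 and 3266 in B cells and 3073, 2856 and 3273 in plasma cells. The values were interleaved, and the log2 fold change was 0.00 ± 0.12, with a 95% interval from −0.30 to 0.29 and an adjusted p of 0.989 (limma). Of its other 4 probe sets, 3 overlapped between the groups, with log2 fold changes from −0.12 to 0.05. The remaining one, 1423066_at, had 420, 445 and 489 in B cells and 308, 350 and 361 in plasma cells. It was lower on every plasma cell array, by −0.39 ± 0.14 on the log2 scale, without passing the threshold (adjusted p 0.0898). Dnmt3b had 1529, 1949 and 2294 in B cells and 1709, 1315 and 1882 in plasma cells. Its groups overlapped, with a log2 fold change of −0.23 ± 0.21, a 95% interval from −0.75 to 0.30 and an adjusted p of 0.474. Its second probe set gave −0.13 ± 0.19. With median centring the log2 fold changes of Dnmt1 and Dnmt3a took the opposite sign, at 0.02 and 0.11.

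The TET dioxygenases differed from each other in direction. Tet1 rose, Tet3 fell and Tet2 was not called. Tet3 had 453, 630 and 661 in B cells and 165, 193 and 300 in plasma cells. Even the highest plasma cell array, array 3, lay below the lowest B cell array, array 1. The log2 fold change was −1.37 ± 0.26, a 2.58-fold lower level, with a 95% interval from −2.01 to −0.73 and an adjusted p of 0.011 (limma). Tet3 was called lower under each of the 17 alternative settings, leaving out single arrays among them, with adjusted p from 0.00053 to 0.0488. It has a single probe set, so no second reading of the transcript was at hand.

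Tet1 was dim in B cells, with 66.5, 78.8 and 76.2, and reached 193, 158 and 213 in plasma cells. All 6 values were above the background level of their array. The log2 fold change was 1.17 ± 0.15, or 2.26-fold, with a 95% interval from 0.80 to 1.54 and an adjusted p of 0.0023. Its 3 other probe sets were dimmer and did not share one direction. Probe set 1419896_at had 28.4, 45.1 and 39.5 in B cells and 81.7, 50.1 and 66.8 in plasma cells, with a log2 fold change of 0.61 ± 0.21 and an adjusted p of 0.0827. Probe set 1419897_at had its highest value, 96.8, on B cell array 1 and gave −0.40 ± 0.33. The third, 1429448_s_at, was above background on 1 plasma cell array and on 0 B cell arrays, so no fold is given. With the mean of the 4 probe sets the log2 fold change of Tet1 was 0.45 and the call was lost (adjusted p 0.152).

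Tet2 had 3176, 3072 and 3594 in B cells and 3294, 3456 and 3367 in plasma cells. The plasma cell values lay inside the range of the B cell values. It had a log2 fold change of 0.04 ± 0.12, with a 95% interval from −0.25 to 0.34 and an adjusted p of 0.822 (limma), and it turned to −0.01 with quantile normalization. Its second probe set, 1438781_at, gave 0.27 ± 0.23, with B cell array 1 at 1624, above every plasma cell array, and B cell arrays 2 and 3 at 939 and 1094, below them. The difference of Tet1 and Tet3 within each array was larger in plasma cells by 2.54 on the log2 scale, and that of Tet2 and Tet3 by 1.41. These pairs were chosen after their values were seen, and the exact two-sided permutation p of 0.1 is the smallest that 3 arrays against 3 can give. For Tet1 and Tet3 that p was also fixed beforehand, since Tet1 was higher and Tet3 lower on every plasma cell array.

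The catalytic subunits of PRC2 had differences of opposite sign, and neither was called. Ezh1 had 1266, 2225 and 2254 in B cells and 1029, 1005 and 1121 in plasma cells. Its B cell array 1 lay near the plasma cell values, yet the groups did not overlap. The log2 fold change was −0.81 ± 0.25, with a 95% interval from −1.42 to −0.20 and an adjusted p of 0.0569 (limma), just above the threshold. Without B cell array 1 it was −1.08 with an adjusted p of 0.00085, and without both B cell array 1 and plasma cell array 3 it was −1.13 with an adjusted p of 0.0024. Ezh1 passed the threshold under 8 of the 17 alternatives.

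The 3 other probe sets of Ezh1 were also lower on every plasma cell array than on any B cell array. Probe set 1418290_a_at had 835, 897 and 968 in B cells and 686, 650 and 644 in plasma cells, with a log2 fold change of −0.44 ± 0.13 and an adjusted p of 0.0543. Probe set 1429629_at had 262, 103 and 108 in B cells and 60.8, 62.1 and 47.3 in plasma cells, and here B cell array 1 was the highest. Probe set 1429630_at had 30.7, 72.7 and 65.4 in B cells and was within background on all 3 plasma cell arrays, at 16.8, 14.7 and 13.4. It was the 1 probe set of Ezh1 that was called, at an adjusted p of 0.0223 over all probe sets. With the plasma cell arrays set at their background level, the level in plasma cells was 1.73-fold lower. Only B cell arrays 2 and 3 were above background for this probe set. B cell array 1 was counted at its own value, so that fold is not a lower bound.

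Ezh2 had 1059, 977 and 966 in B cells and 1417, 1314 and 2229 in plasma cells. The B cell arrays were close together, and plasma cell array 3 stood above the other 2 plasma cell arrays. Ezh2 thus gave a log2 fold change of 0.68 ± 0.22, with a 95% interval from 0.13 to 1.22 and an adjusted p of 0.0692 (limma). Without plasma cell array 3 the log2 fold change was 0.44 with an adjusted p of 0.0897, and without B cell array 1 it was 0.72 with an adjusted p of 0.0758. Without both arrays, a setting chosen after seeing the data, it was 0.48 with an adjusted p of 0.0222. Ezh2 passed the threshold under 4 of the 17 alternatives, that one among them. The log2 difference of Ezh2 and Ezh1 within an array was −0.25, −1.17 and −1.21 in B cells and 0.46, 0.38 and 0.98 in plasma cells. It was larger by 1.49 in plasma cells. Since Ezh2 was higher and Ezh1 lower on every plasma cell array, the lack of overlap was fixed beforehand. So was the exact permutation p, the smallest possible (0.1, and 0.1 after adjustment over the 4 such pairs computed), which adds no support. The sign of such a difference has no meaning of its own, since levels of different probe sets are not on 1 scale.

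Bmi1, the PRC1 subunit, rose by a smaller amount with tight replicates. It had 2261, 2376 and 2553 in B cells and 3765, 3488 and 3408 in plasma cells. Bmi1 differed by 0.57 ± 0.12 on the log2 scale, or 1.48-fold, with a 95% interval from 0.28 to 0.85 and an adjusted p of 0.0151 (limma). Its second probe set, 1448733_at, was between 1414 and 1431 in B cells and at 1929, 1928 and 1707 in plasma cells, with a log2 fold change of 0.38 ± 0.13 and an adjusted p of 0.0774. Both probe sets separated the groups. The call was lost without B cell array 2 (log2 fold change 0.56, adjusted p 0.0571), plasma cell array 1 (0.52, adjusted p 0.0747) or plasma cell array 2 (0.58, adjusted p 0.061). With median centring the fold was 0.68 and the adjusted p 0.103. The call was also lost with the replicate number as a block in limma (adjusted p 0.072).

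Genes of S phase and mitosis were the list with the most calls. Of 19 measured genes, 11 rose, 0 fell and 8 were not called (limma, 12 at an unadjusted p below 0.05), and the median log2 fold change was 1.20. Over all genes 17.6% were called higher and 12.3% lower, which is the background for this list and for each list below. Cdk1, the kinase that starts mitosis, rose by 3.13 on the log2 scale, from 376, 142 and 130 in B cells to 1648, 1684 and 2111 in plasma cells (adjusted p 0.0023). Mki67, a marker of dividing cells, rose by 3.07, from 1076, 332 and 385 to 4454, 4442 and 4508 (adjusted p 0.0035). Ccna2, an S phase cyclin, rose by 2.80 (adjusted p 0.00091) and Birc5, a subunit of the chromosomal passenger complex, by 2.62 (adjusted p 0.0054). For all 4, B cell array 1 had the highest B cell value. The 8 uncalled genes of the list went both ways. Mcm7, Mcm5, Mcm4, Tyms and Mcm3 lay below 0, with log2 fold changes of −0.53, −0.44, −0.40, −0.28 and −0.10. Mcm7, Mcm5, Mcm4 and Tyms passed the threshold without both B cell array 1 and plasma cell array 3. Tyms also passed it without B cell array 1 alone. It had 567.2 on that array, 66.8 and 68.3 on the other B cell arrays and 106.1 to 122.5 in plasma cells. Rrm1, Mcm2 and E2f2 lay above 0, at 0.49, 0.23 and 0.10. Pcna, the sliding clamp of the replication fork, is on another list and was not called, with a log2 fold change of 0.10 (adjusted p 0.683). The summed level of the 19 genes was 18171, 15148 and 15261 in B cells and 33838, 32291 and 39483 in plasma cells. Plasma cell array 3 was the highest of its group for 17 of these 19 genes and for 8 of the 10 methylation and Polycomb genes, Uhrf1 and Ezh2 among them. The share of all genes for which it was the highest was not computed. Its median intensity was also the highest of its group, 95.1 against 88.9 and 89.0. In the B cell group, array 3 was the highest for 7 of the 10 genes. Plasma cell array 3 was also the highest of its group for 5 of 6 precursor B cell markers. Among these, Rag1, part of the recombinase of immunoglobulin genes, was 815, 1075 and 2250 on the plasma cell arrays and 35.6 to 59.0 on the B cell arrays, and Dntt, which adds bases at the joints, was 3547, 413 and 5669 against 12.2 to 28.7. All 6 precursor B cell markers were above background on every plasma cell array. The part of such cells in the values of Uhrf1 and Ezh2 was not tested.

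**Figure D3:**
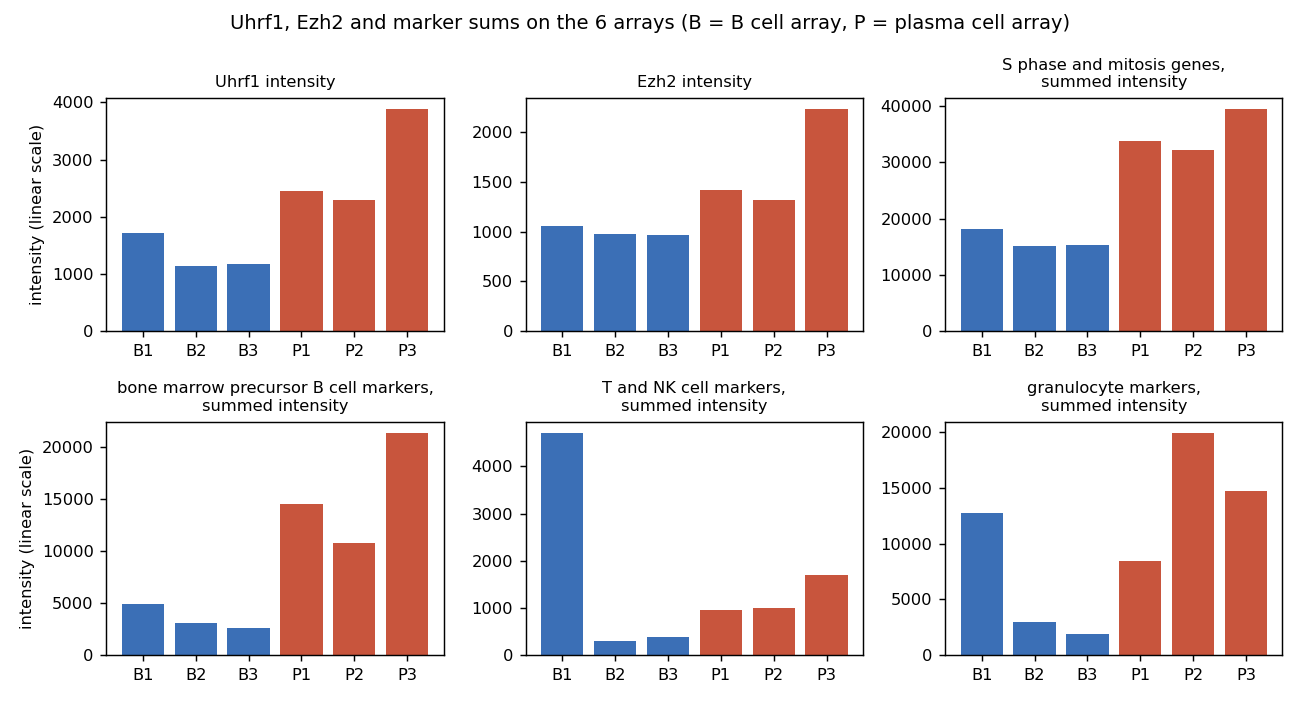
Bars give, for each of the 6 arrays (B1 to B3 are B cell arrays, P1 to P3 plasma cell arrays), the intensity of Uhrf1 and Ezh2 and the summed intensity of the S phase and mitosis genes and of the precursor B cell, T and NK cell and granulocyte markers, each on a linear axis from 0. B cell array 1 stands above the other B cell arrays for T and NK cell markers, at 4715 against 304 and 372, and plasma cell array 3 is the highest for precursor B cell markers, at 21378.

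Other genes of DNA methylation, readers of the mark among them, mostly did not pass the test. Of 20 measured genes of 21 listed, 2 rose, 1 fell and 17 were not called, with a median log2 fold change of −0.18 beside −0.06 for all genes. Zbtb38, a zinc finger protein that binds methylated DNA, had 1720, 1973 and 2150 in B cells and 4604, 4257 and 4321 in plasma cells, a rise of 1.17 ± 0.13 on the log2 scale (adjusted p 0.0014). Mbd3, a subunit of the NuRD repressor complex, rose by 0.64 ± 0.17, from 803, 551 and 690 to 987, 1121 and 1080 (adjusted p 0.0348). Mbd4, a glycosylase that removes thymine from mismatches at CG pairs, fell from 1410, 1582 and 1841 to 1143, 1148 and 1148, a log2 fold change of −0.48 ± 0.14 (adjusted p 0.047). These last 2 calls were lost without B cell array 2 or 3 or any 1 plasma cell array, with adjusted p from 0.0851 to 0.12 for Mbd3 and from 0.117 to 0.143 for Mbd4. Uhrf2, the paralogue of Uhrf1, gave 0.12 ± 0.16 (adjusted p 0.632), and Hells, a chromatin remodeller needed for DNA methylation, gave 0.45 ± 0.19 (adjusted p 0.13). Hells passed the threshold under 2 of the 17 alternatives, among them without both B cell array 1 and plasma cell array 3.

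Genes that act with or after the TET enzymes moved in both directions. Of 16 measured genes of 19 listed, 3 rose, 4 fell and 9 were not called, with a median of −0.23. Gadd45b and Gadd45a, stress-induced paralogues that have been linked to demethylation, went opposite ways. Gadd45b had 893, 2027 and 2241 in B cells and 4625, 5145 and 5357 in plasma cells, a rise of 1.65 ± 0.36 on the log2 scale (adjusted p 0.0179). Gadd45a had 1618, 1957 and 2517 in B cells and 579, 517 and 995 in plasma cells, a log2 fold change of −1.56 ± 0.30 (adjusted p 0.0107). In base excision repair, the uracil glycosylase Ung rose by 1.27 (adjusted p 0.0023) and the ligase Lig3 by 0.74 (adjusted p 0.0124). The endonuclease Apex1 and the glycosylase Smug1 fell, with log2 fold changes of −1.0 (adjusted p 0.0024) and −0.44 (adjusted p 0.0478). Cxxc5, which binds unmethylated CG pairs and recruits TET2, had 1847, 2746 and 2919 in B cells and 1379, 1250 and 1543 in plasma cells. It fell by 0.82 on the log2 scale (adjusted p 0.0319). The calls of Cxxc5 and Smug1 were lost without B cell array 2 or 3 or any 1 plasma cell array (adjusted p from 0.0574 to 0.158), that of Gadd45b without any 1 plasma cell array (0.0571 to 0.065) or with the mean of its 3 probe sets (0.175), and that of Lig3 without plasma cell array 1 or 2 (0.0604 and 0.0503).

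Among the other PRC2 subunits, 0 rose, 1 fell and 10 were not called of 11 measured (limma, 3 at an unadjusted p below 0.05), with a median of −0.14. Mtf2, an accessory subunit that guides PRC2 to CG-rich DNA, had 1907, 1725 and 1968 in B cells and 1159, 1267 and 1378 in plasma cells, a log2 fold change of −0.55 ± 0.13 (adjusted p 0.0222). That call was lost without B cell array 3 or plasma cell array 1 or 2 (adjusted p from 0.0766 to 0.096). The core subunit Eed, which reads the H3K27 mark, had 2994, 3479 and 3938 in B cells and 2459, 2398 and 2562 in plasma cells. Its groups did not overlap, and its adjusted p of 0.0509 missed the threshold. Eed passed it under 8 of the alternatives, among them without B cell array 1. Suz12, the core scaffold, gave 0.09 ± 0.11 (adjusted p 0.579) and Jarid2, an accessory subunit, −0.14 ± 0.12 (adjusted p 0.433).

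Of 24 measured PRC1 genes of 26 listed, 3 rose, 4 fell and 17 were not called, with a median of −0.08. Phc2 and Phc1, polyhomeotic subunits through which PRC1 polymerises, both fell. Phc2 had 1138, 1692 and 1700 in B cells and 328, 295 and 366 in plasma cells, a log2 fold change of −2.12 ± 0.20 (adjusted p 0.00074). Phc1 had 538, 740 and 815 in B cells and 271, 228 and 342 in plasma cells, a log2 fold change of −1.26 ± 0.22 (adjusted p 0.0078). Both were called under every one of the 17 alternatives. Rnf2, the ubiquitin ligase that pairs with BMI1, had 2527, 2458 and 2550 in B cells and 1390, 1410 and 1596 in plasma cells. Rnf2 fell by 0.77 on the log2 scale (adjusted p 0.0044), opposite to Bmi1 in the same samples. With median centring and with the mean of its 5 probe sets that call was lost (adjusted p 0.0944 and 0.285). Ring1, its paralogue, gave 0.00 ± 0.37 (adjusted p 0.999), with B cell array 1 at 400 and B cell arrays 2 and 3 at 1010 and 936. Ring1 passed the threshold under 2 of the 17 alternatives, among them without both B cell array 1 and plasma cell array 3.

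Cbx6, a chromodomain subunit, rose from 1838, 1659 and 1729 to 3995, 4168 and 3718, by 1.18 on the log2 scale (adjusted p 0.0009), a call that was lost with x and s probe sets left out (adjusted p 0.0584). Bcorl1, a corepressor of PRC1 variants, and E2f6, a repressive E2F factor of another variant, rose by 1.49 and 0.72 (adjusted p 0.0224 and 0.0348). Mga, a partner of E2f6 in that variant, fell by 0.67 (adjusted p 0.0128). Single arrays decided 3 of these calls. That of Bcorl1 was lost without plasma cell array 2 or 3 (adjusted p 0.082 and 0.0801), that of E2f6 without B cell array 2 or any 1 plasma cell array (0.0821 to 0.122), and that of Mga without B cell array 2 or 3 or plasma cell array 2 (0.0506 to 0.0538). Cbx7, the chromodomain subunit known for repressing Cdkn2a, missed the threshold, with 1777, 2383 and 2360 in B cells and 1529, 1466 and 1491 in plasma cells (adjusted p 0.0502). It passed under 8 of the alternatives, among them without B cell array 1. Cbx8 and Pcgf2, the paralogue of Bmi1, gave −0.01 ± 0.30 and −0.13 ± 0.51.

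Of 16 genes that oppose Polycomb, 3 rose, 1 fell and 12 were not called, with a median of −0.27. Usp16, which removes ubiquitin from histone H2A, rose by 0.48 (adjusted p 0.0358), Asxl1, a partner of the deubiquitinase BAP1, by 0.47 (adjusted p 0.0261). Smarcb1, a core SWI/SNF subunit, was called higher by 0.37 (adjusted p 0.0454), but its probe sets disagreed. With x and s probe sets left out it was called lower, at −0.61 (adjusted p 0.0159), and with the mean of its 3 probe sets it was called higher, at 1.78, so its direction is not settled. Arid1a, another SWI/SNF subunit, fell by 0.62 (adjusted p 0.0191). The calls of all 4 genes were lost without B cell array 2 or 3 or any 1 plasma cell array, with adjusted p from 0.0545 to 0.167. Bap1 gave −0.21 ± 0.29 and Kdm6b, an H3K27 demethylase, −0.40 ± 0.25, neither called. Each passed the threshold under 3 of the alternatives, among them without B cell array 1. Kdm6a, the X-linked H3K27 demethylase, had 2395, 1664 and 1464 in B cells and 2519, 2736 and 2689 in plasma cells, with a log2 fold change of 0.55 ± 0.20 (adjusted p 0.097). B cell array 1, the B cell array with Xist at the level of the plasma cell arrays, lay closest to them. Kdm6a passed the threshold under 4 of the alternatives, among them without that array. The part of sex in the value of Kdm6a was not tested.

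Cdkn2a and Cdkn2b, neighbouring cell cycle inhibitor genes that Polycomb is known to repress, both rose. Of the 4 genes on the list of Polycomb targets, these 2 rose, 0 fell and 2 were not called (limma, 2 at an unadjusted p below 0.05), with a median log2 fold change of 0.97. Cdkn2a had 38.8, 11.9 and 12.6 in B cells, all within background, and 87.7, 74.1 and 68.2 in plasma cells. The level was at least 2.66-fold higher in plasma cells (adjusted p 0.0152), and the call was lost without B cell array 2 or 3 or plasma cell array 1 or 2 (adjusted p from 0.0533 to 0.0635). Cdkn2b had 9.4, 3.8 and 9.9 in B cells, also within background, and 93.5, 128 and 58.8 in plasma cells. It was at least 3.10-fold higher (adjusted p 0.002) and was called under each of the 17 alternatives.

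**Figure D4:**
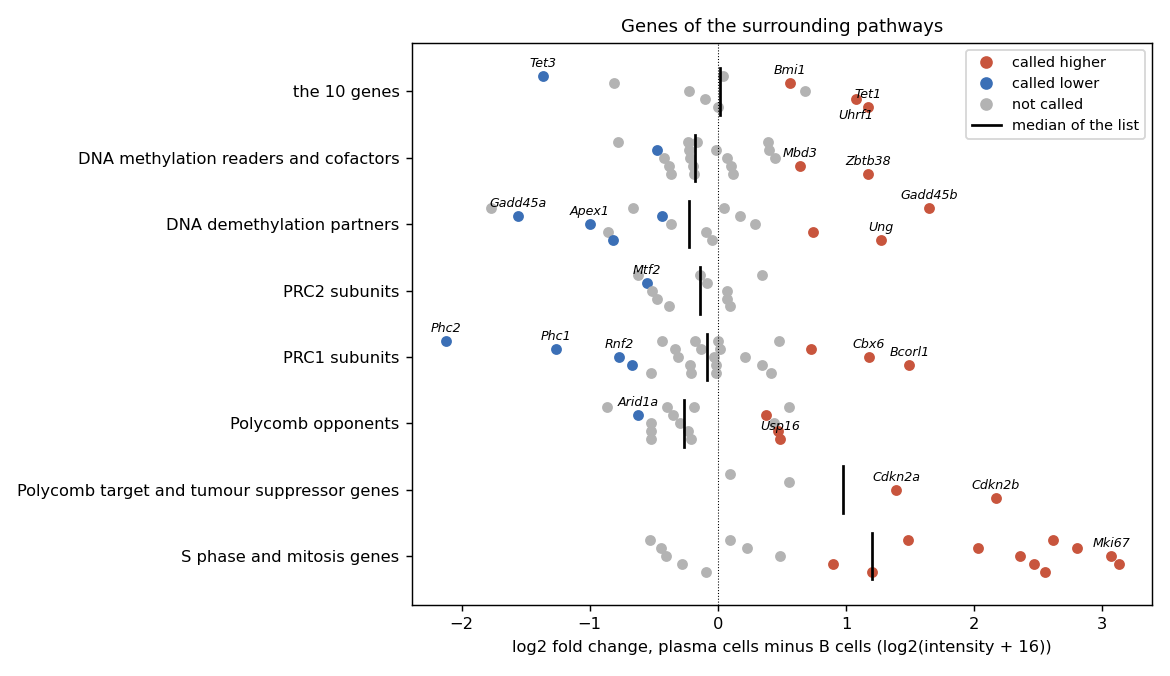
Log2 fold change (plasma cells minus B cells, log2(intensity + 16)) of the 10 genes and of each measured gene of the 7 surrounding lists, 1 point per gene; colour gives the call and the black bar the median of the list. The medians of the 10 genes and of the 5 lists of methylation and Polycomb factors lie between −0.27 and 0.02, and that of the S phase and mitosis genes at 1.20.

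Over the 7 lists, 24 genes rose, 11 fell and 75 were not called of 110 measured, beside 29.9% of all genes called in either direction. The 35 calls are near that share. The groups did not overlap for 59 of the 110, beside 47.8% of all genes. With median centring 19 of the list genes rose and 4 fell. Of the 35 called genes, 15 stayed called under every alternative that gave a value, and 17 lost the call without at least 1 array. With the mean of all probe sets of a gene, the log2 fold changes of Zbtb38, Lig3 and E2f6 were larger, at 1.83, 1.16 and 1.40. Those of Gadd45b, Bcorl1, Mbd4, Mtf2 and Rnf2 were nearer 0, at 0.97, 0.61, −0.31, −0.29 and −0.25.

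The genes whose pattern over the 6 arrays was most like that of each of the 10 were found by the smallest root mean square difference of log2 values with each gene's own mean removed. For Tet3 these were Ehd2, Colgalt1 and Patz1, at 0.05 to 0.08. For Tet1 they were Haghl, Cebpb and Il18, and for Bmi1 Larp1, Rnf103 and Rbm7. Uhrf1 was followed by Zik1, Kif23 and Ska3, at 0.10 to 0.13. For Ezh1 they were Cep350, Nosip and Snrnp200, each with B cell array 1 below the other B cell arrays as for Ezh1 itself. Ezh2 was followed by Spry3, Fmnl2 and Olfml2a, of which Spry3 and Olfml2a were within background on every array, as was Kcne1 in the list of Dnmt3b. Dnmt1 was closest to Trit1, Zzz3 and Slc35f6, Dnmt3a to Sucla2, Ppp2r3c and Sdc4, Dnmt3b to Prr15l, Fbxl20 and Kcne1, and Tet2 to Xpo7, Rsl24d1 and Anapc15. Likeness over 6 arrays in 2 groups is a description of these samples.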

How the data were processed

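Total RNA was extracted, amplified (NuGEN Ovation V2) and biotin-labelled, per the labels' protocols, and hybridised to 1-colour Affymetrix arrays. The deposited values are intensity on a linear scale, 1 per probe set and array, with a floor at 1, which between 386 and 684 probe sets per array had. The authors' summary of probes, background correction and normalization are not given in the sources used here. Symbols came from the platform annotation, updated by Entrez identifier against the RefSeq table of GRCm38.p6 (34741 of 34945 matched). Probe sets with several symbols were left out, so Tdg has no value here.

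Values were taken as log2(intensity + 16). Plasma cells were compared with B cells in limma 3.58.1 under R 4.3.3 (lmFit and eBayes without trend), over 18193 genes and separately over 45037 probe sets, with Benjamini-Hochberg adjustment. SE is the fit's standard error, and n is 3 arrays per group throughout. A level within background is at or below the 95th percentile of the bacterial controls of its array, and "at least" folds are computed against that level. Precision is limited by the number of arrays. The 10 genes, the lists and the tests were chosen with earlier results of these data known. Named genes were the 10 with every probe set and up to 4 called genes of each list in each direction with the largest folds. Genes fixed by name, the 3 most alike and the uncalled S phase and mitosis genes were also named. The 17 alternatives changed the added constant, normalization, filter, choice of probe sets, variance model, block or arrays used, 1 at a time; leaving out B cell array 1 and plasma cell array 3 together was chosen after seeing the data.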

Additional observations from a re-analysis of the deposited data

How the results depend on the processing

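Over the 10 genes and 17 alternatives, 139 log2 fold changes kept their direction and their side of the threshold, 12 passed it anew, 13 no longer passed it and 6 changed sign; the causes were not tested. The 6 were of uncalled genes: Dnmt1 with median centring (0.017), Dnmt3a with median centring (0.11), and when B cell array 3 or the second plasma cell array was dropped (−0.050 to 0.047 over all single arrays), and Tet2 with quantile normalization (−0.012) and without B cell array 2 (−0.0028). Deviations of same-numbered arrays from their group means correlated at 0.048, 0.005 and 0.046, and those of differently numbered arrays at −0.044 to 0.032. With 3 arrays a group, these values cannot decide whether the samples were paired. With the replicate number as a block 1 of the 10 genes was higher, since Uhrf1 and Bmi1 lost their calls, and 5 pathway genes were lower. With the mean of all probe sets 1 of the 10 was higher. A count of 2 lower among the 10, against 1, was found with an added constant of 64, quantile normalization, the dim filter and the mean of probe sets. The same count was found with the trend, with array weights, without B cell array 1, and with both doubted arrays left out. Pathway genes lower numbered 11 in the main setting, 4 with median centring, 17 with quantile normalization, 17 with the trend, 40 with array weights and 32 without both doubted arrays. Over all genes, array weights gave 4840 higher and 4654 lower, median centring 1243 lower, and leaving out both doubted arrays 3855 lower. Leaving out 1 array at a time gave 1 to 3 higher and 1 to 2 lower among the 10, 14 to 30 higher and 5 to 32 lower pathway genes, and 1347 to 3830 lower among all genes. With 3 arrays a group, changes of about the size of those of Ezh1 and Ezh2 sit at the threshold, and Tet1, Cdkn2a and Cdkn2b lie near the background level in B cells.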
